A study of Mus musculus with 24 samples.

Results

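The 8 genes described here encode the D cyclins (Ccnd1, Ccnd2 and Ccnd3), the Cip/Kip inhibitors of cyclin-dependent kinases (Cdkn1a, Cdkn1b and Cdkn1c) and a pair of INK4 inhibitors (Cdkn2c and Cdkn2d). They were chosen by symbol, and all 8 matched a gene in a RefSeq table of GRCm38.p6 that holds 21887 protein-coding genes on the main chromosomes. The series is a CUT&RUN study, in which a nuclease brought by an antibody cuts the DNA around a chromatin-bound protein, of retina from wild-type mice aged 2 days (P2) or 17 days (P17). At each age SOX8 was profiled in 4 libraries, from 2 antibodies, and SOX9, the histone marks H3K4me3 and H3K27ac, and control IgG in 2 each, which makes 24 libraries. The nuclei came from whole retina, and strain and sex are not given in the sources used here. The data are 8 peak lists, 1 per target and age, and the 4 IgG libraries were not analysed here. The lists name no replicate and carry no peak height, so a value below has no replicate error and no test: a gene either has a peak in a list or has none, and the peak has a position and a width.

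D cyclins bind CDK4 and CDK6 in the G1 phase of the cell cycle, and the active kinases phosphorylate the retinoblastoma protein, which frees E2F factors to switch on genes of DNA replication. INK4 proteins bind CDK4 and CDK6 directly, while Cip/Kip proteins bind cyclin and kinase complexes, above all those of CDK2. In the mouse retina, progenitors still divide in the days after birth, and the last neurons and the Müller glia leave the cycle before the eyes open. SOX8 and SOX9 are transcription factors of the SoxE group, and in the retina SOX9 is present in progenitors and Müller glia. H3K4me3 is a mark of promoters in use, while H3K27ac is found at active enhancers as well.

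A gene was counted as having a peak where a peak overlapped the gene or its 5 kb flanks by 1 bp or more. In the P2 SOX9 list, 5 of the 8 genes had a peak (Ccnd1, Cdkn1a, Cdkn1b, Cdkn2c and Cdkn2d), where 27.7% of all protein-coding genes had one. In the P2 SOX8 list, 4 of 8 had a peak, the same genes without Cdkn2c, against 15.1% of all genes. In each of the P17 SOX lists, only Cdkn1b of the 8 had a peak, against 13.0% of all genes for SOX8 and 15.7% for SOX9. Ccnd2, Ccnd3 and Cdkn1c had no SOX peak at either age. Fewer cells of a type and less signal per cell cannot be told apart in whole tissue. The genes with a SOX peak all carried H3K4me3 at P2, and the background rises when it is limited to such genes: of the 10788 genes with a P2 H3K4me3 peak, 29.8% had a P2 SOX8 peak and 53.3% a P2 SOX9 peak, beside 4 and 5 of the 6 D cyclin and inhibitor genes with that mark.

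The marks themselves were counted in the same way. H3K4me3 lay at 6 of the 8 genes at P2 (49.3% of all genes) and at 5 at P17 (50.9%), but not at the same ones: Ccnd1 and Cdkn1a had it only in the P2 list and Cdkn1c only in the P17 list. H3K27ac lay at 8 of 8 genes at P2 (81.8% of all genes) and at 5 of 8 at P17 (57.0%), with Ccnd2, Cdkn1a and Cdkn1c without a P17 peak. At Cdkn1c the P2 peak had only 144 bp in the window. Where at least 50% of a peak had to overlap, Cdkn1c dropped out and the P2 count was 7 (81.2% of all genes). The P2 H3K27ac list is 9.62 times as long as the P17 list. With only its widest peaks, in the P17 number, it reached 4 of the 8 genes (Ccnd1, Ccnd3, Cdkn1b and Cdkn2d) and 40.5% of all genes.

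**Figure D1:**
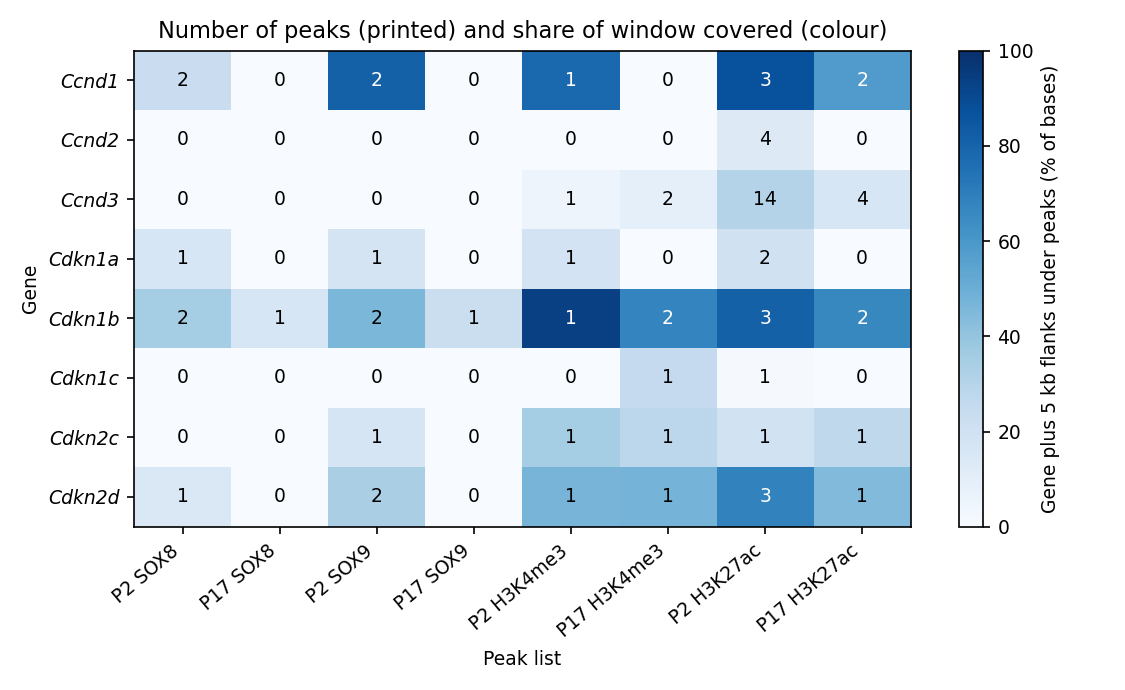
Rows are the 8 genes and columns the 8 peak lists. The printed number is the count of peaks at the gene or its 5 kb flanks, and the colour is the share of those bases under peaks, in percent. Cdkn1b has a peak in all 8 lists, and Ccnd2 in the P2 H3K27ac list only.

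Ccnd1, the main D cyclin of retinal progenitors, held the widest SOX peak at any of the 8 genes. The gene lies on chromosome 7 at 144929931 to 144939831 (GRCm38), and the window with flanks covers 19.9 kb. SOX9 had 2 peaks at P2. The larger one spanned chr7:144932238-144944583, or 12346 bp, and only 14 of the 5476 peaks of the list were wider. It ran over most of the gene and across the gene's higher-coordinate end, and it lay wholly inside a P2 H3K4me3 peak. The other SOX9 peak (chr7:144927378-144931156, 3779 bp) spanned the lower-coordinate end of Ccnd1 and also overlapped the neighbouring gene LTO1, so it cannot be given to either gene alone. Together the SOX9 peaks covered 81.0% of the window.

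The 2 P2 SOX8 peaks at Ccnd1 were narrower, at 2283 bp (chr7:144936766-144939048) and 2271 bp (chr7:144939970-144942240), and both lay wholly inside the larger SOX9 peak. The first ended 783 bp inside the higher-coordinate end of the gene, and the second began 139 bp beyond it. Their widths were close to the list median of 2217 bp. The extent of the factors differed at Ccnd1, since SOX8 peaks covered 22.9% of the window.

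H3K4me3 covered Ccnd1 from end to end at P2, in 1 peak of 15933 bp (chr7:144929258-144945190), and only 11 of 9134 peaks in that list were wider. At P17 no H3K4me3 peak lay in the window. The nearest one was 12.3 kb away, at LTO1. H3K27ac was present at both ages. At P2 it had a peak of 12691 bp over the gene and its higher-coordinate end, a peak of 4488 bp over the lower-coordinate end and LTO1, and one of 697 bp at the edge of the flank. At P17 a peak of 13297 bp lay over the lower-coordinate end and LTO1 and held all of the P2 peak there, and a further peak of 1969 bp lay inside the gene. The share of the window under H3K27ac was 87.4% at P2 and 57.9% at P17. Of 10766 protein-coding genes with both marks at P2, 2.96% had H3K27ac without H3K4me3 at P17, as Ccnd1 did. No P17 SOX peak lay near the gene: the nearest P17 SOX8 peak lay 323.4 kb and the nearest P17 SOX9 peak 456.2 kb from the gene. That SOX8 peak is listed with a width of 2 bp and lies at Tpcn2.

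Ccnd2 and Ccnd3 had no SOX peak. Ccnd2 (chromosome 6, 127125162 to 127152188) had no H3K4me3 peak at either age, which holds for 45.7% of protein-coding genes. Its 4 P2 H3K27ac peaks were 657 to 2419 bp wide, 3 of them inside the gene, and none was left in the P17 list or among the widest P2 peaks. The nearest P2 SOX9 peak lay 184.3 kb away, at D6Wsu163e and Rad51ap1.

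Ccnd3 (chromosome 17, 47505051 to 47599689) is the longest of the 8 genes, and its start sites in the RefSeq promoter table lie far apart. H3K4me3 lay over the downstream start at 47593467 at both ages, with a width of 5256 bp at P2 and 7935 bp at P17. The upstream start at 47505051 had no peak over it in any list. A second P17 H3K4me3 peak of 1535 bp, 2112 bp outside the gene, overlapped the neighbouring gene Taf8, and 0.395% of peaks in that list were narrower. H3K27ac had 14 peaks in the window at P2, of which 11 lay at or inside the gene. At P17 it had 4, of which 3 lay at or inside the gene. With only the widest peaks of the longer P2 list, in the P17 number, 2 were left at P2, against 4 at P17. The nearest SOX peak was the P2 SOX9 peak of 2712 bp at chr17:47610027-47612738, 10.3 kb beyond the gene, at Bysl and Med20. Of 10043 genes with H3K4me3 at both ages, 37.7% had no SOX peak in any list, as Ccnd3 did.

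**Figure D2:**
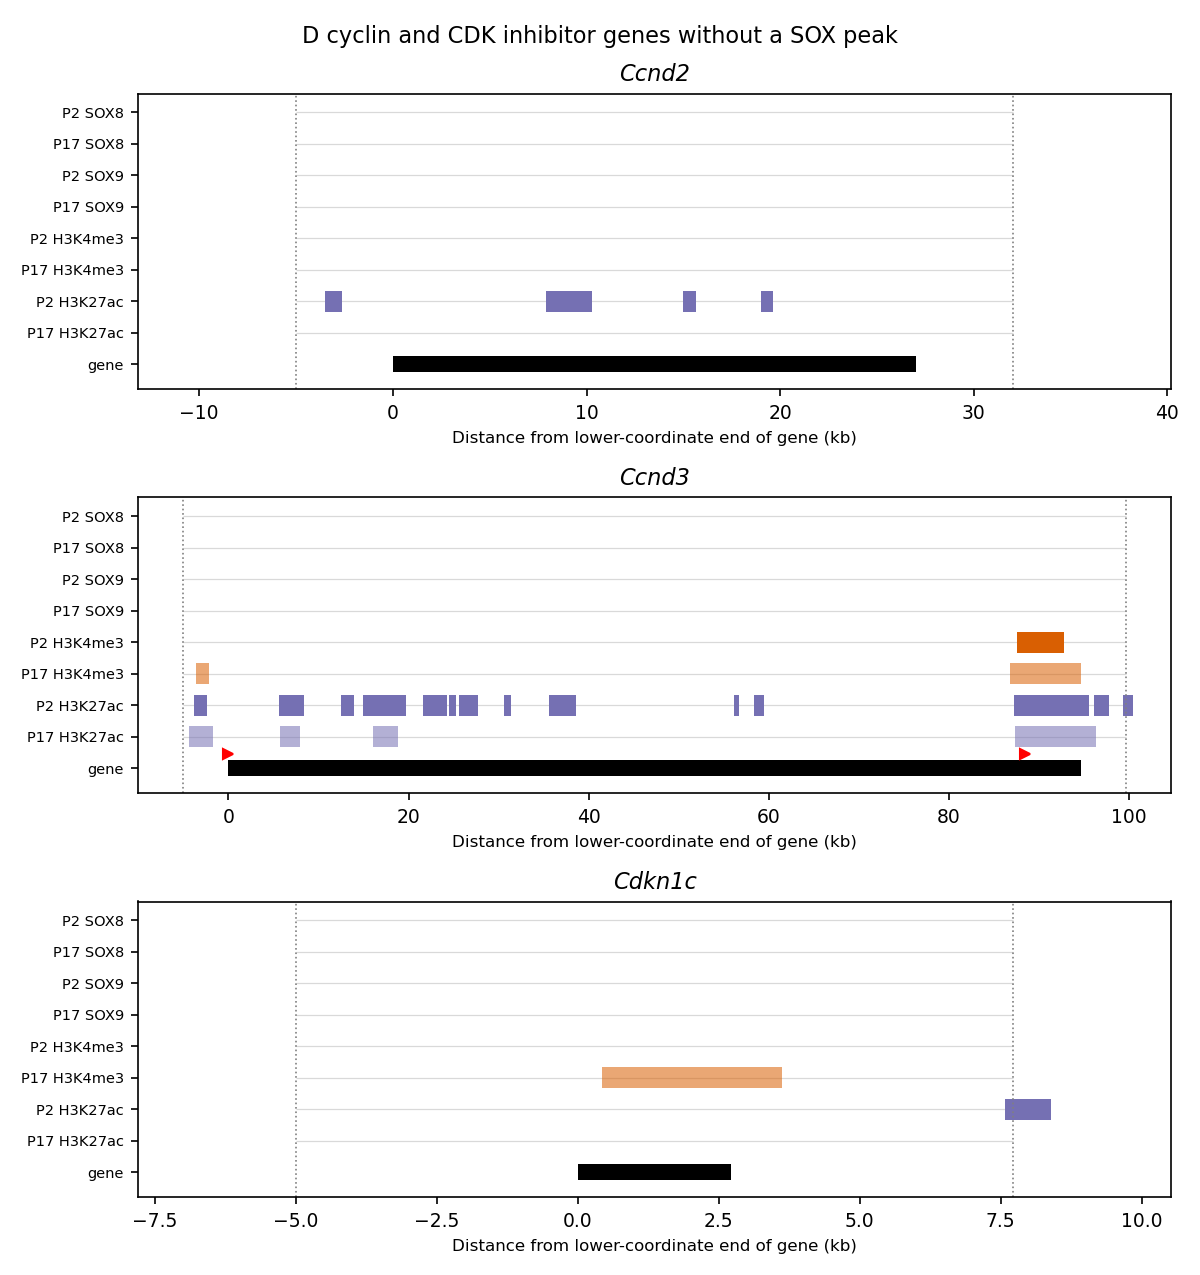
Each panel is 1 gene without a SOX peak. Bars are peaks, 1 row per list, the black bar is the gene, red arrowheads are start sites where the RefSeq table gives them, and dotted lines are the ends of the 5 kb flanks. The horizontal axis is the distance from the lower-coordinate end of the gene in kb. Ccnd3 has H3K4me3 at its downstream start at both ages, and Cdkn1c has H3K4me3 at P17.

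The Cip/Kip gene Cdkn1b encodes p27Kip1, which holds cells out of the cycle. Of the 8 genes it alone had a peak in all 8 lists. All 4 SOX lists had a peak at 6.45% of protein-coding genes. The gene (chromosome 6, 134920401 to 134925525, plus strand) had 2 P2 sites. The first lay over its start and the second over the start of Lockd, a long noncoding RNA gene downstream whose start is at 134929092. Lockd was named after its values were seen. The 250 bases before each start are shown because SOX peaks of both factors covered all of them at P2. They come from RefSeq (GRCm38.p6, plus strand, 5′ to 3′), and capitals mark GGGCGG, the GC box bound by Sp factors, and CCAAT, on either strand.
Cdkn1b, chr6:134920151-134920400: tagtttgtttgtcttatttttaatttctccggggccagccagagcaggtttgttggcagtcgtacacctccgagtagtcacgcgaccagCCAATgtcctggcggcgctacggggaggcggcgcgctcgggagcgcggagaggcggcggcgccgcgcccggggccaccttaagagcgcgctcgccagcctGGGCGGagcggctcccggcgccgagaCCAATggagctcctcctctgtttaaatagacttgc
Lockd, chr6:134928842-134929091: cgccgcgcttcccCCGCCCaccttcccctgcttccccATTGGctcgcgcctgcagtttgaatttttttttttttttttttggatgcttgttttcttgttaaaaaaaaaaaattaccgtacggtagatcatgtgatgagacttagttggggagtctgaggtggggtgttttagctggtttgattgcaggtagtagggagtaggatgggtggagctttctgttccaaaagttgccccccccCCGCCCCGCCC

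At the Cdkn1b start, the P2 SOX8 peak was 2454 bp wide (chr6:134919204-134921657), with its centre 29 bp downstream of the start. It lay wholly inside the P2 SOX9 peak of 3712 bp (chr6:134919059-134922770). At P17 the SOX8 peak was 2446 bp wide (chr6:134919593-134922038) and shared 2065 bp with the P2 peak, or 84.1% of it. The P17 SOX9 peak was 3400 bp wide (chr6:134919058-134922457) and shared 3399 bp with its P2 counterpart. Widths and places were therefore near to each other at both ages, but their rank in the lists was not: the SOX9 peak at this start was wider than 83.8% of its list at P2 and wider than 19.3% at P17. The median width of all SOX9 peaks was 2668.5 bp at P2 and 5336 bp at P17. For SOX8 the peak at this start was wider than 62.8% of its list at P2 and 33.4% at P17.

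At Lockd, P2 SOX8 had a peak of 2897 bp (chr6:134926961-134929857) and P2 SOX9 one of 3220 bp (chr6:134926341-134929560), which shared 2600 bp. Neither P17 SOX list had a peak there, while both marks did: P17 H3K4me3 had 4712 bp and P17 H3K27ac 3201 bp over the same place. The start of Cdkn1b thus kept its SOX peaks in the P17 lists and the start of Lockd did not. A P2 H3K4me3 peak of 17214 bp (chr6:134916367-134933580) ran over both starts, and only 7 peaks of that list were wider. At P17 H3K4me3 had 2 peaks there, of 5858 and 4712 bp, both wholly inside the P2 one, and the share of the window under H3K4me3 was 93.6% at P2 and 67.5% at P17. The shares under SOX were 35.4% and 16.2% for SOX8 and 45.8% and 22.5% for SOX9. H3K27ac had 3 peaks at P2 and 2 at P17, and its widest P17 peak, of 6801 bp, lay over the start of Cdkn1b.

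Cdkn1a encodes p21, an inhibitor that p53 switches on. The gene lies on chromosome 17 at 29090979 to 29100722, plus strand, with start sites at 29090979 and 29093769 in the RefSeq table. At P2 a peak each of SOX8 (3165 bp, chr17:29093237-29096401), SOX9 (3535 bp, chr17:29092777-29096311), H3K4me3 (3605 bp) and H3K27ac (2371 bp) lay over the downstream start, and none over the upstream one. A second P2 H3K27ac peak of 1562 bp (chr17:29097977-29099538) lay inside the gene and over neither start. SOX8 and SOX9 shared 3075 bp, or 97.2% of the SOX8 peak. The 250 bases before each start are shown as a pair because they separate a start under peaks from one without (RefSeq, GRCm38.p6, plus strand, 5′ to 3′, capitals as above).
Cdkn1a downstream start, chr17:29093519-29093768: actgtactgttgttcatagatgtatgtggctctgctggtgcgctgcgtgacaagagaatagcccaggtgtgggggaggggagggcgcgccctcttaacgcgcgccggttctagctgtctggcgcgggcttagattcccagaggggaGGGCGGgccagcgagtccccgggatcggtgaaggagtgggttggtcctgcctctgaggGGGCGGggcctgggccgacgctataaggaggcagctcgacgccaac
Cdkn1a upstream start, chr17:29090729-29090978: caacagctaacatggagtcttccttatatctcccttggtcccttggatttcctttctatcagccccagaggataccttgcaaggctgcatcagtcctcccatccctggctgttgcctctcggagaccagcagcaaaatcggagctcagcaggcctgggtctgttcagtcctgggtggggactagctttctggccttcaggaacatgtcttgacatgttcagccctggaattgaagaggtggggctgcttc

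The sequence under the peaks held 64.8% G and C and 2 GC boxes, and the other held 54.0% and none. At P17 the Cdkn1a window was empty in every list. The nearest P17 H3K27ac peak lay 34.3 kb away at Rab44, the nearest H3K4me3 peak 55.1 kb away at Srsf3, and the nearest SOX peak, of SOX9, 147.0 kb away at Ppil1. This pattern, with all 4 targets at P2 and none at P17, was shared by 25 of the 21887 protein-coding genes, or 0.114%, Cdkn1a included. It depends on the long P2 H3K27ac list: with only its widest peaks, in the P17 number, Cdkn1a had no P2 H3K27ac peak. Ccnd1, which differs from it only by its P17 H3K27ac, shared its own pattern with 27 genes in all.

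Cdkn1c encodes p57Kip2, an imprinted inhibitor expressed from the maternal copy, which acts as retinal progenitors leave the cycle. The gene (chromosome 7, 143458339 to 143461059) was the only one of the 8 with H3K4me3 at P17 and not at P2. Of the genes without a P2 H3K4me3 peak, 9.86% had one at P17. The peak was 3205 bp wide (chr7:143458762-143461966) and spanned the higher-coordinate end of the gene. No P17 H3K27ac peak accompanied it, as in 5.76% of genes with a P17 H3K4me3 peak. The only P2 peak reaching the window was an H3K27ac peak of 823 bp at the outer edge of the flank, with 144 bp inside it. The nearest P2 SOX8 peak lay 28.8 kb away, at Kcnq1.

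The INK4 genes both had a P2 SOX9 peak, and Cdkn2d also a P2 SOX8 peak. Cdkn2c encodes p18INK4c and lies on chromosome 4 at 109660876 to 109666756, minus strand. Its P2 SOX9 peak of 2700 bp (chr4:109665060-109667759) spanned both of its starts in the RefSeq table and lay wholly inside H3K4me3. Of genes with a P2 SOX9 peak, 47.9% had no P2 SOX8 peak, as Cdkn2c did. A SOX8 peak of 1330 bp lay 9.2 kb from the gene, at Faf1, outside the 5 kb flank. Cdkn2d encodes p19INK4d and lies on chromosome 9 at 21288459 to 21291421, minus strand. Its P2 SOX8 peak (1910 bp, chr9:21290344-21292253) and 1 of its P2 SOX9 peaks (1736 bp, chr9:21290402-21292137) lay over the start, and the SOX9 peak was wholly inside the SOX8 one. The other SOX9 peak (2645 bp, chr9:21287186-21289830) lay over the opposite end of the gene, where it also overlapped Kri1. The 250 bases before the start of Cdkn2d and before the outer start of Cdkn2c are shown because the first lies under both factors and the second under SOX9 alone at P2 (RefSeq, GRCm38.p6, minus strand, 5′ to 3′, capitals as above).
Cdkn2d, chr9:21291210-21291459: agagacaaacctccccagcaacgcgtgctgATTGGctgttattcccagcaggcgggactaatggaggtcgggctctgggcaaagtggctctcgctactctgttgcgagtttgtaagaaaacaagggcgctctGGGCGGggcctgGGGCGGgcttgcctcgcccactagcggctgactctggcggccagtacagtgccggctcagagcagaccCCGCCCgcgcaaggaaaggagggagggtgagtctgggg
Cdkn2c, chr4:109666757-109667006: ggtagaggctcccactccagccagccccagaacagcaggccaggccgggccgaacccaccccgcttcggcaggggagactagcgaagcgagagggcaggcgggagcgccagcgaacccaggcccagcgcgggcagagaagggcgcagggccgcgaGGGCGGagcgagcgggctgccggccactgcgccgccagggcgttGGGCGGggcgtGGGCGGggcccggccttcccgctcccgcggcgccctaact

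At P17 both INK4 genes kept the marks without SOX peaks. H3K4me3 at Cdkn2c was 5630 bp wide at P2 and 4464 bp at P17, and H3K27ac 3005 and 4319 bp. H3K4me3 at Cdkn2d was 6101 bp at P2 and 6147 bp at P17, and the P17 peak shared 5752 bp with the P2 one. H3K27ac had 3 peaks in the Cdkn2d window at P2, or 1 with only the widest P2 peaks, and 1 at P17. The H3K4me3 and H3K27ac peaks over Cdkn2d also overlapped Kri1 at both ages, so they cannot be given to either gene alone. The nearest P17 SOX9 peak lay 74.2 kb from Cdkn2d and 1331.8 kb from Cdkn2c.

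**Figure D3:**
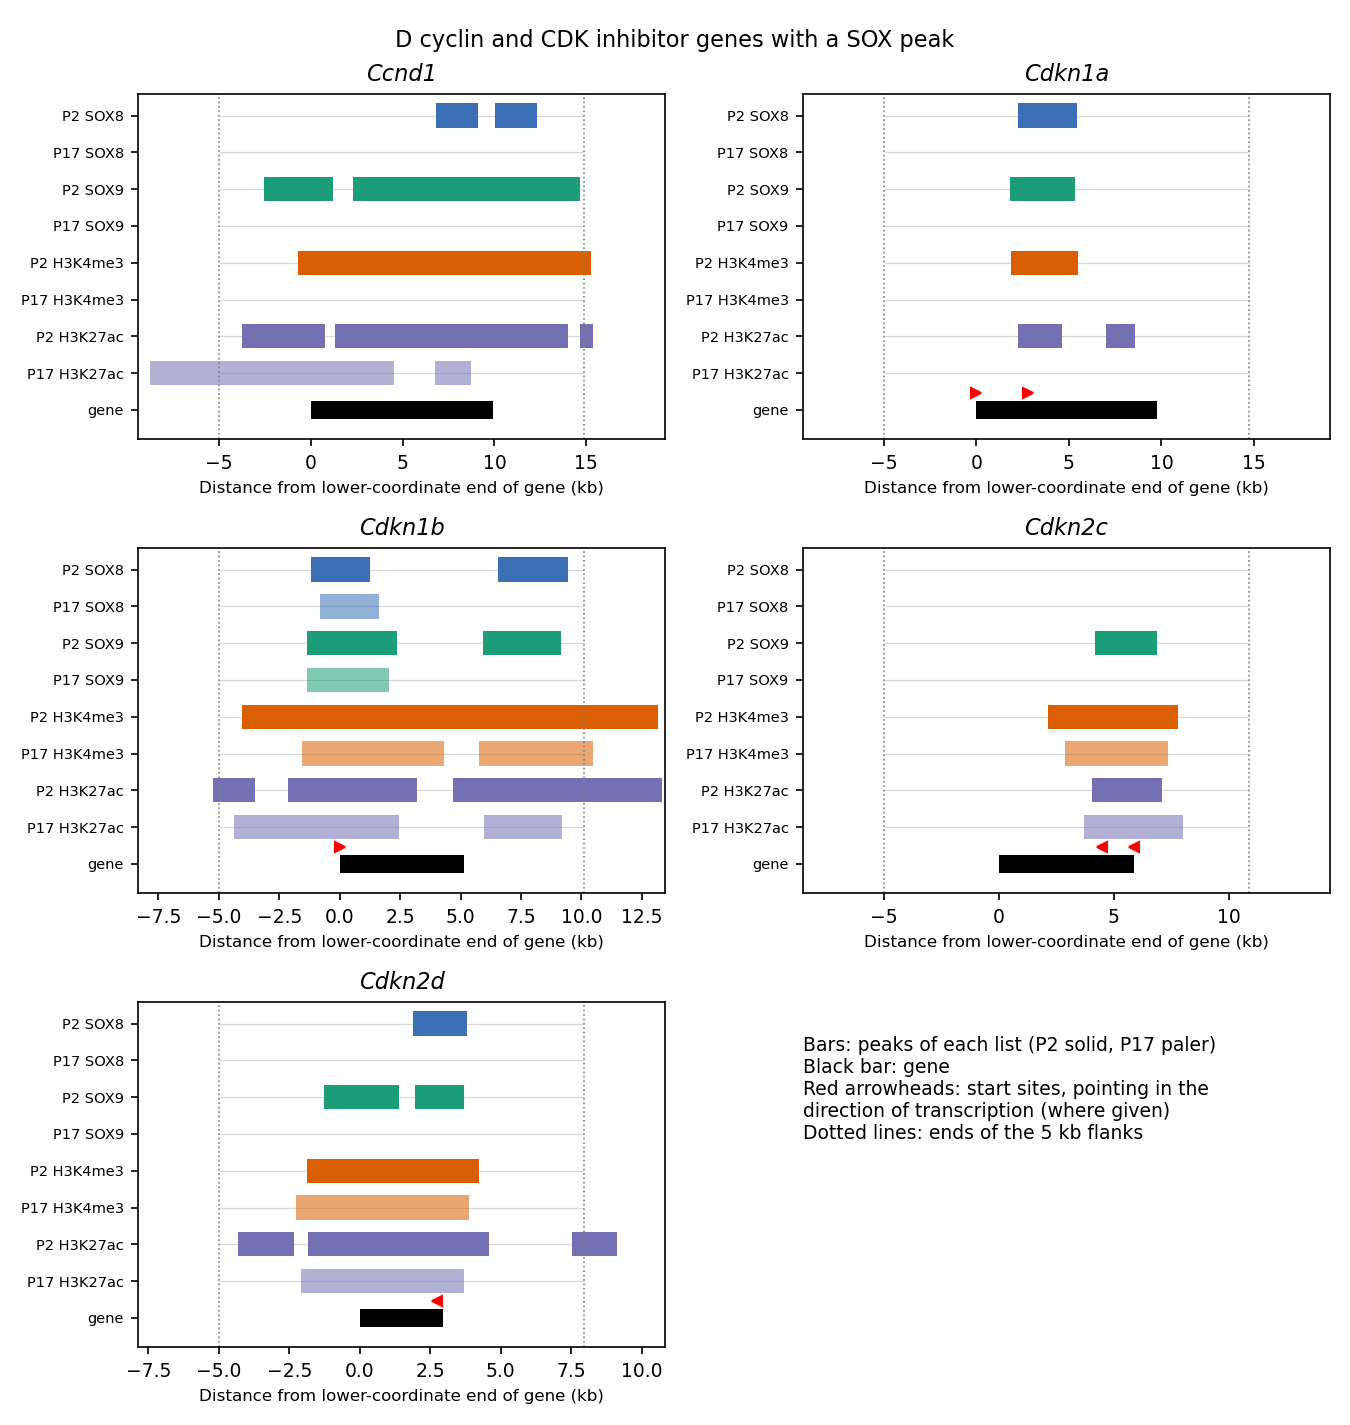
Each panel is 1 gene with a SOX peak. Bars are peaks, 1 row per list, solid for P2 and paler for P17, the black bar is the gene, red arrowheads are start sites where the RefSeq table gives them, and dotted lines are the ends of the 5 kb flanks. The horizontal axis is the distance from the lower-coordinate end of the gene in kb. P17 SOX bars appear only at the start of Cdkn1b.

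Across the 8 genes, the P2 lists held 14 SOX peaks, 6 of SOX8 and 8 of SOX9, and the P17 lists 2. All 16 overlapped H3K4me3 of the same age, and 14 lay wholly inside it. Each of the 6 P2 SOX8 peaks overlapped a SOX9 peak. The share of all peaks in the lists with such overlaps was not computed. Counted by gene, 3219 of all 3302 protein-coding genes with a P2 SOX8 peak also had a P2 H3K4me3 peak. For P2 SOX9 this held for 5750 of 6073. Of the 6073, 2909 had no P2 SOX8 peak, so most of the 3302 genes with P2 SOX8 had P2 SOX9 as well. Of the 5 genes with a P2 SOX9 peak, 4 had none at P17, where 58.9% of all genes with a P2 SOX9 peak had none. Of the 4 with a P2 SOX8 peak, 3 had none at P17, against 46.4%. For H3K4me3, 2 of 6 had none at P17, against 6.91% of all genes with a P2 peak, and for H3K27ac 3 of 8, against 30.7%. Those 3 (Ccnd2, Cdkn1a and Cdkn1c) also had no P2 H3K27ac peak when only its widest P2 peaks, in the P17 number, were kept. More than 1 peak was listed at some of the 8 genes: 3 of the 5 with P2 SOX9 had 2 peaks, where 12.8% of all genes with P2 SOX9 had 2 or more, and 2 of the 4 with P2 SOX8 did, where 6.21% of all such genes had 2 or more. In each of the 3, 1 of the 2 SOX9 peaks also overlapped another gene: LTO1 at Ccnd1, Lockd at Cdkn1b and Kri1 at Cdkn2d. The windows of the 8 genes had a median of 17.8 kb, shorter than the 27.2 kb of all protein-coding genes.

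**Figure D4:**
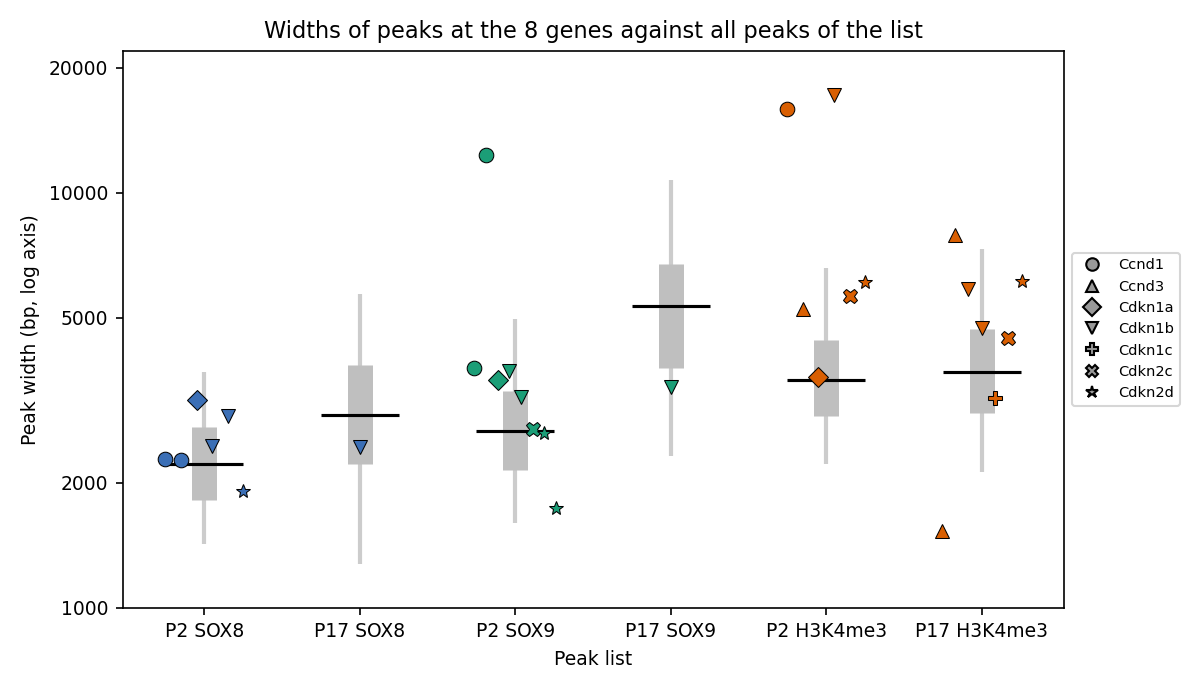
Symbols are the peaks at the 8 genes in each SOX and H3K4me3 list, with width in bp on a log axis. The black line is the median of all peaks in that list, the grey box its 25th to 75th percentile and the thin line its 5th to 95th. The P2 SOX9 and H3K4me3 peaks at Ccnd1 (12346 and 15933 bp), the P2 H3K4me3 peak at Cdkn1b (17214 bp) and the wider P17 H3K4me3 peak at Ccnd3 (7935 bp) lie above the thin line.

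The letters of the promoters were searched on both strands in the 250 bases before each start. Of the 8 genes, 5 had promoter sequences, 8 in all: Ccnd3, Cdkn1a, Cdkn1b, Cdkn2c and Cdkn2d. The SOX peaks at the 8 genes were 1736 to 12346 bp wide, so most bases under them were not searched. Ccnd1, with the widest SOX peak, had no sequence to search. The SOX core letters AACAAT were in none of the 8 sequences, and ACAAAG was in 1, the upstream start of Ccnd3, which had no peak in any list. Among all 32851 promoters, AACAAT was in 9.42% and ACAAAG in 16.5%. Among the 5520 promoters whose start lay in a P2 SOX9 peak, these shares were 3.93% and 10.3%, and the median G and C content was 64.4%, against 52.4% over all promoters. GGGCGG was in each of the 5 sequences printed above that lay under a SOX peak, but not before the inner start of Cdkn2c at 109665372, which the P2 SOX9 peak also covered and where G and C made up 42.8%. It was also before both starts of Ccnd3, which had no SOX peak. It was in 32.7% of all promoters and 69.1% of those in a P2 SOX9 peak. CCAAT (33.8% of all promoters) was before the starts of Cdkn1b, Cdkn2d, Lockd and the downstream start of Ccnd3. The E2F letters TTTCGCGC and TTTGGCGC, the cyclic AMP response letters TGACGTCA and the E-box letters CACGTG were in none of the 8. They were in 0.256%, 0.417%, 1.55% and 6.02% of all promoters. The sequence before the downstream start of Ccnd3 is shown for contrast, since H3K4me3 and H3K27ac lay over it at both ages and no SOX peak did (RefSeq, GRCm38.p6, plus strand, 5′ to 3′, capitals as above).
Ccnd3 downstream start, chr17:47593217-47593466: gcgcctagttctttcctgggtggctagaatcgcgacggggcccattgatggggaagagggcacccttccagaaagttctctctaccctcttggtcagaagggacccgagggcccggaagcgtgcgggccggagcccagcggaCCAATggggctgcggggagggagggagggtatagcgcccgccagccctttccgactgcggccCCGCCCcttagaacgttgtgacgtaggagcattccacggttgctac

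Other cell cycle genes, here called G1/S genes, were counted from a list of 33. They were chosen by role: other cyclins, kinases, further INK4 inhibitors, pocket proteins, E2F and DP factors, and regulators. The list is broader than that transition, since the other cyclins include the B cyclins Ccnb1 and Ccnb2, and the kinases include Cdk1. P2 SOX9 lay at 20 of the 33 (60.6%) and P2 SOX8 at 10 (30.3%), against 27.7% and 15.1% of all protein-coding genes. Limited to genes with a P2 H3K4me3 peak, these were 20 and 10 of 31, against 53.3% and 29.8% of all such genes. P17 SOX9 lay at 7 and P17 SOX8 at 7, against 15.7% and 13.0% of all genes. H3K4me3 lay at 31 at P2 and 22 at P17, against 49.3% and 50.9%. Of the 31, 9 had no P17 peak, against 6.91% of all genes with a P2 peak. Among the 5 G1/S genes with a peak in all 4 SOX lists were Cdk4, the kinase partner of the D cyclins, and E2f3, an E2F activator. The other 3 were Fzr1, which directs the anaphase-promoting complex, Mycn, a driver of progenitor growth, and Trp53, the activator of Cdkn1a. Beside these, P17 SOX peaks lay at E2f4 (both factors), Ccne1 (SOX9) and Ccne2 (SOX8). By role, P2 SOX9 lay at 4 of 4 kinases, 3 of 5 other cyclins, 6 of 10 E2F and DP factors, 6 of 9 regulators, 1 of 3 pocket proteins and neither of the further INK4 genes, Cdkn2a and Cdkn2b. P17 H3K4me3 was listed at 1 of the 5 other cyclins and at 3 of 3 pocket proteins. Limited to genes with a P17 H3K4me3 peak, 23.1% of all genes had P17 SOX8 and 27.4% P17 SOX9, beside 1 of the 5 D cyclin and inhibitor genes with that mark for each factor. Of the 22 G1/S genes with that mark, 7 had P17 SOX8 and 6 had P17 SOX9.

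**Figure D5:**
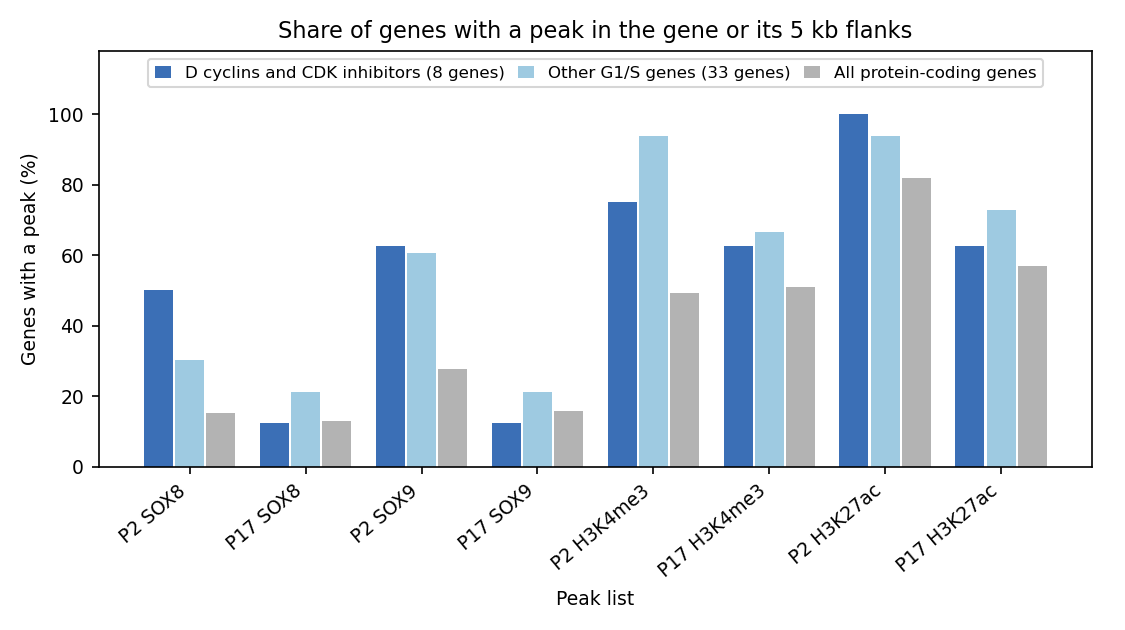
Bars are the percentage of genes with a peak in the gene or its 5 kb flanks in each list, for the 8 D cyclin and CDK inhibitor genes, the 33 other G1/S genes and all protein-coding genes. For SOX9 the 8 genes stand at 62.5% at P2 and 12.5% at P17, and the other G1/S genes at 60.6% and 21.2%. With 8 genes, 1 gene moves a bar by 12.5 points.

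For each of the 8 genes, the most similar G1/S gene was sought by the number of lists, of 8, in which both had or both lacked a peak, with ties broken by the share of the window covered. E2f1 matched Cdkn1a in 8 of 8 lists, with SOX8, SOX9 and both marks at P2 and no peak at P17, and it was the only one of the 33 to do so. The extent of the peaks differed: E2f1 had 2 P2 SOX9 peaks and Cdkn1a 1, and P2 H3K27ac covered 95.3% of the E2f1 window and 19.9% of the Cdkn1a window. E2f1 was also the match of Ccnd1, in 7 of 8. Cdk4 matched Cdkn1b, with a P17 SOX9 peak of 10982 bp against 3400 bp at Cdkn1b. Cks1b matched Cdkn2d, E2f5 matched Cdkn2c and Rbl2 matched Ccnd3, each, as Cdk4 did, in 8 of 8. Cdkn2b, which had no peak in any list, matched Ccnd2, and E2f6 matched Cdkn1c, each in 7 of 8. E2f6 had H3K4me3 at P2, which Cdkn1c lacked. The match of E2f6 also counts the P2 H3K27ac peak with only 144 bp in the Cdkn1c window. That peak is lost where at least 50% of a peak has to overlap. Except for Cdkn1a and Cdkn1c, other G1/S genes matched in as many lists and the tie was broken by coverage: 6 genes tied for Cdkn2c, 5 each for Cdkn1b and Ccnd1, 4 each for Ccnd2 and Ccnd3, and 3 for Cdkn2d. The patterns of Ccnd2 and Ccnd3 were shared by 19.2% and 15.6% of all protein-coding genes.

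Markers of cell types were counted in the same lists, since whole retina changes its cell makeup between P2 and P17 and the lists do not separate cell types. Over all protein-coding genes, 27.7% had SOX9 at P2 and 15.7% at P17, and for SOX8 the shares were 15.1% and 13.0%. For H3K4me3 they were 49.3% and 50.9%, and for H3K27ac 81.8% and 57.0%. Of 5 genes of dividing cells (Mki67, Top2a, Pcna, Mcm2 and Mcm6), all had H3K4me3 at P2 and 2 at P17, and 3 had P2 SOX9 and none P17 SOX9. SOX8 lay at 1 of these 5 at P2 (Pcna) and at 1 at P17 (Mcm2, which had none at P2). Of 6 rod genes, 4 had H3K4me3 at P2 and 6 at P17. SOX9 lay at 1 of them at P2 and at all 6 at P17, and SOX8 at 2 and 4. Of 5 Müller glia genes, 4 had H3K4me3 at P2 and 2 at P17, and 4 had P2 SOX9 and none P17 SOX9. SOX8 lay at 3 of these at P2 and at none at P17. None of 8 microglial and endothelial genes had an H3K4me3 or SOX peak at either age. H3K27ac lay at all 8 of these at P2 and at 1 at P17, at 5 and 2 of the 5 genes of dividing cells, at 5 and 4 of the Müller glia genes, and at 6 of 6 rod genes at both ages. The part of these differences in the absence of P17 SOX and H3K4me3 peaks at Ccnd1, of any P17 peak at Cdkn1a, and of P17 H3K27ac at Ccnd2 and Cdkn1c was not tested.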

How the data were processed

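CUT&RUN was done on wild-type mouse retina at P2 and P17, with 600000 nuclei per reaction per the labels' protocols. The authors deposited 8 peak lists on GRCm38, 1 for each target and age. Bowtie2 and SEACR are named per the submitters' processing notes. Their versions, the threshold, the use of IgG and the way libraries and antibodies were combined are not given in the sources used here. Each list holds chromosome, start and end, and the deposited score field is 0 in every peak, so depth and enrichment are unknown and the number and width of peaks may follow depth or threshold. Replicates are not separated, so no test was possible and none was run.

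Genes came from RefSeq (GRCm38.p6). Overlaps of at least 1 bp with the gene plus 5 kb were counted in Python 3.11.15, and the look-up was tested on simulated data. Named genes were the 8 genes, the most similar G1/S gene of each, G1/S genes with a peak in all 4 SOX lists or with a P17 SOX peak, and neighbours within 5 kb of a peak. Lockd and the genes at the nearest peaks outside the windows were named after their values were seen. For Ccnd1, Ccnd2 and Cdkn1c, no start was given and positions refer to the gene ends. The genes, lists, motifs and 6 alternatives were chosen with earlier results of these data known.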

Additional observations from a re-analysis of the deposited data

How the results depend on the processing

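The counts of the 8 genes with a peak were recomputed under 6 alternatives: no flank, flanks of 20 kb, 2 kb around the start, an overlap of at least 50% of the peak, the wider 50% of each list, and the widest peaks in equal number at both ages. Of 48 such counts, 45 stayed within 1.5 times the count given above. With the wider 50% of each list, the P17 counts were 0 for SOX8 and 0 for SOX9, against 7.16% and 8.38% of all genes. The peaks at Cdkn1b are narrower than the medians of those lists. With equal numbers of widest peaks, P2 H3K27ac lay at 4 genes in place of 8, and at 40.5% of all genes in place of 81.8%. With flanks of 20 kb, P2 SOX9 added Ccnd3, P2 SOX8 added Cdkn2c, and P17 H3K4me3 added Ccnd1 and Ccnd2, and P17 H3K27ac added Ccnd2. The added P17 peaks lie at LTO1 and Tigar. With these flanks the shares of all genes were 35.7% for P2 SOX9 and 20.5% for P2 SOX8. They were 57.9% for P17 H3K4me3 and 64.2% for P17 H3K27ac. Of 384 numbers of peaks at single genes, 59 moved by more than 1.5 times or to or from 0. No paired analysis was possible because the lists do not separate the replicates of a group. Leaving out a replicate was not possible for the same reason.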
